A study of Danio rerio with 18 samples.

Results

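The heart's contractile unit is the sarcomere, in which thick filaments of myosin pull on thin filaments of actin. Myosin consists of heavy chains, which carry the motor, and light chains, which bind to them. Troponin sits on the thin filament and switches contraction on when its C subunit binds calcium and releases the brake imposed by its I subunit. In zebrafish the heart tube begins to beat and then loops and divides into atrium and ventricle during the stages sampled here.

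The 4 genes described here are 2 myosin genes and 2 troponin genes. Their features were taken by RefSeq identifier from the 37105 features of a one-colour NimbleGen expression array, and all 4 were found. The myosin genes were myh6 (NM_198823, 8 probes), the atrial myosin heavy chain, and myl7 (NM_131329, 6 probes), the cardiac regulatory light chain whose promoter is widely used to mark the zebrafish heart. The troponin genes were tnnc1b (NM_001002085, 11 probes), a calcium-binding C subunit listed in RefSeq with the synonym stnnc, and tnni1b (NM_001008613, 11 probes), an inhibitory I subunit of the type named for slow muscle. Slow-type troponins are found in heart and in slow skeletal muscle, so the troponin features need not report the heart alone. No sequence is shown for these genes, and genome positions were not used here.

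The RNA came from pools of 40 whole embryos. All embryos were dechorionated at 4 hours post fertilization (hpf) and then held from 6 hpf, at 37 °C according to the labels, in 1 of 3 agents. The control groups received vehicle, the MES groups 50 µg/mL of 1.5 nm gold nanoparticles coated with MES, and the TMAT groups 10 µg/mL of 1.5 nm gold nanoparticles coated with TMAT. Each agent was sampled at 24 hpf and at 48 hpf with 3 arrays per group, 18 arrays in all. As background, MES is the anionic ligand mercaptoethanesulfonate and TMAT the cationic ligand trimethylammoniumethanethiol. No strain is given, and whether the pools came from separate clutches is not stated, so p-values measure the spread between these pools, which may be technical. The series title gives the question as the effect of surface chemistry on embryonic gene expression. Because whole embryos were used, fewer heart cells and less RNA per heart cell cannot be told apart.

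The median intensity of an array was 1809 to 2197. The array's random control probes, which serve as a background level, read 78.8 to 96.4 on the 12 exposed arrays and 82.8 to 168.6 on the 6 control arrays. A pair of control arrays (array 1 at 24 hpf, array 2 at 48 hpf) stood apart, with the lowest mean correlations with arrays of their age (0.885 and 0.881, against 0.940 to 0.969 for the others). A combined table deposited with the series holds the same values, but only 2 of its 18 columns matched their own sample's table. The per-array labels were used here. By them ampd1, a muscle enzyme gene, read 200 to 507 on all 9 arrays at 24 hpf and 26296 to 36399 on all 9 arrays at 48 hpf, which checks age but not agent.

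**Figure D1:**
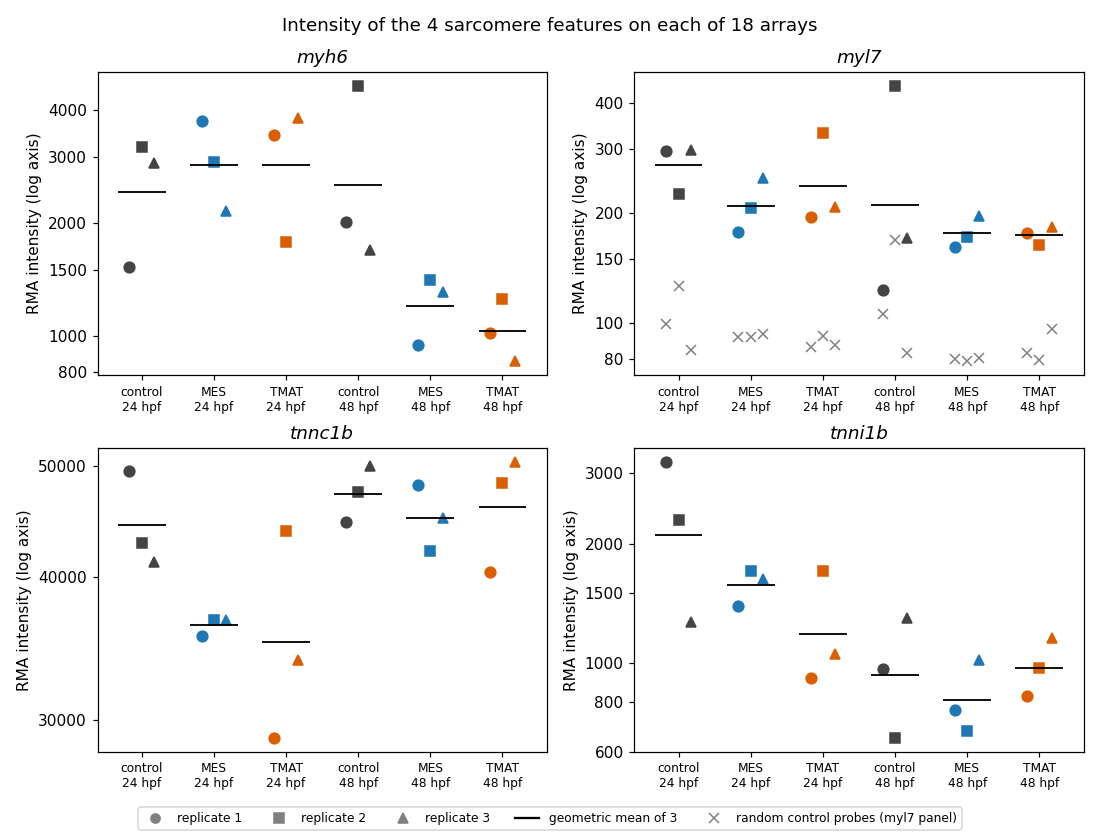
RMA intensity (log axis, vertical) of each gene on each array, by group (horizontal), with the geometric mean of 3 arrays as a line; crosses in the myl7 panel are the random control probes of the same array. The myh6 values of the 6 exposed arrays at 48 hpf (855 to 1413) lie below the 3 control arrays of that age (1699 to 4656), and myl7 lies near the random probes. The mean of tnni1b is highest in controls at 24 hpf, but by a step smaller than the SD.

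myh6 was the member with the clearest separation between groups. In controls it read 1526, 3189 and 2887 at 24 hpf and 2016, 4656 and 1699 at 48 hpf. With MES particles it read 3748, 2908 and 2155 at 24 hpf and 943, 1413 and 1312 at 48 hpf. In the TMAT groups it read 3427, 1779 and 3821 at 24 hpf and 1016, 1257 and 855 at 48 hpf. The control values overlapped between the ages, whereas in either exposed series every 48 hpf value lay below every 24 hpf value. The highest value of all was that of control array 2 at 48 hpf.

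From 24 to 48 hpf myh6 fell in exposed embryos. The log2 difference was −1.25 ± 0.40 (SE) with MES particles (95% interval −2.09 to −0.40, limma adjusted p = 0.0311, n = 3 per age), a 2.38-fold lower level. With TMAT particles it was −1.47 ± 0.40 (−2.32 to −0.63, limma adjusted p = 0.0184), a 2.77-fold lower level. In controls it was 0.06 ± 0.40 (−0.78 to 0.91, limma adjusted p = 0.928), and its sign was not stable: it was −0.08 with arrays centred on their medians, −0.04 after quantile normalization, and −0.71 (adjusted p = 0.193) without the pair of control arrays that stood apart. Over all features, 12.6% fell by the same test with MES particles and 7.55% with TMAT particles. Groups that did not overlap, with the older lower, were found for 29.1% and 20.1% of all features. Both calls depended on single arrays. The MES call was kept in 1 of 6 fits that each left out 1 array, that without MES array 3 at 24 hpf (adjusted p = 0.0330), and lost without MES array 1 or 2 at 24 hpf (0.115 and 0.0801) or MES array 1, 2 or 3 at 48 hpf (0.111, 0.0612 and 0.0525). The TMAT call was lost without TMAT array 1 or 3 at 24 hpf (0.0671 and 0.0892) or TMAT array 1 or 3 at 48 hpf (0.0596 and 0.0738). The sign held in all 12 of these fits.

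A fall with age in exposed embryos and none in controls does not by itself show that the changes differ. That difference was tested as the change of the particle effect between the ages. For myh6 it was −1.31 ± 0.56 for MES particles (95% interval −2.51 to −0.12, unadjusted p = 0.0336, limma adjusted p = 0.272, n = 3 per group). For TMAT particles it was −1.53 ± 0.56 (−2.73 to −0.34, unadjusted p = 0.0152, limma adjusted p = 0.610). Neither passed over all features, so the fall in exposed embryos was not shown to differ from the change in controls. The call turned on the weight given to arrays. With array weights both passed (−1.11, adjusted p = 0.0338, and −1.24, adjusted p = 0.0368). In that fit control arrays 1, 2 and 3 at 48 hpf had weights of 6.39, 0.19 and 0.35, so their mean rested mainly on array 1. Without control array 2 at 48 hpf the estimates were −0.87 and −1.09 (adjusted p = 0.455 and 0.833). Without both control arrays that stood apart they were −0.54 and −0.76 (adjusted p = 0.783 and 1.00). In the unweighted fit of all arrays, 0.00270% of features passed at that threshold for MES particles and 0.00% for TMAT particles. These shares do not apply to the weighted fit, whose own shares are not given here. Both contrasts share the 6 control arrays. The doses of the 2 particles differ, and no test was made between them.

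At 48 hpf, myh6 was −1.06 ± 0.40 from control with MES particles (mean log2 intensity 10.23 ± 0.31 SD against 11.30 ± 0.78, 95% interval −1.91 to −0.22, limma adjusted p = 0.121, n = 3 per group). With TMAT particles it was −1.29 ± 0.40 (10.01 ± 0.28 SD, −2.13 to −0.44, limma adjusted p = 0.109). Neither difference passed, although no exposed value reached the lowest control value. Such a separation, with the exposed arrays lower, was seen for 20.2% of all features with MES particles and 15.9% with TMAT particles, while 1.89% and 0.00% were called lower. The size rested on control array 2 of that age. Without it the differences were −0.62 (adjusted p = 0.441) and −0.85 (adjusted p = 0.467). Without control array 3 they were −1.35 and −1.57 and both passed (adjusted p = 0.0432 and 0.0233). That array is also the one whose omission raised the number of calls over all features to 6260 and 6310. At 24 hpf the differences were 0.25 ± 0.40 (−0.60 to 1.09, limma adjusted p = 0.853) with MES and 0.24 ± 0.40 (−0.60 to 1.09, adjusted p = 0.822) with TMAT particles. They turned to −0.08 and −0.09 without control array 1 at 24 hpf, which had the lowest value of its age.

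**Figure D2:**
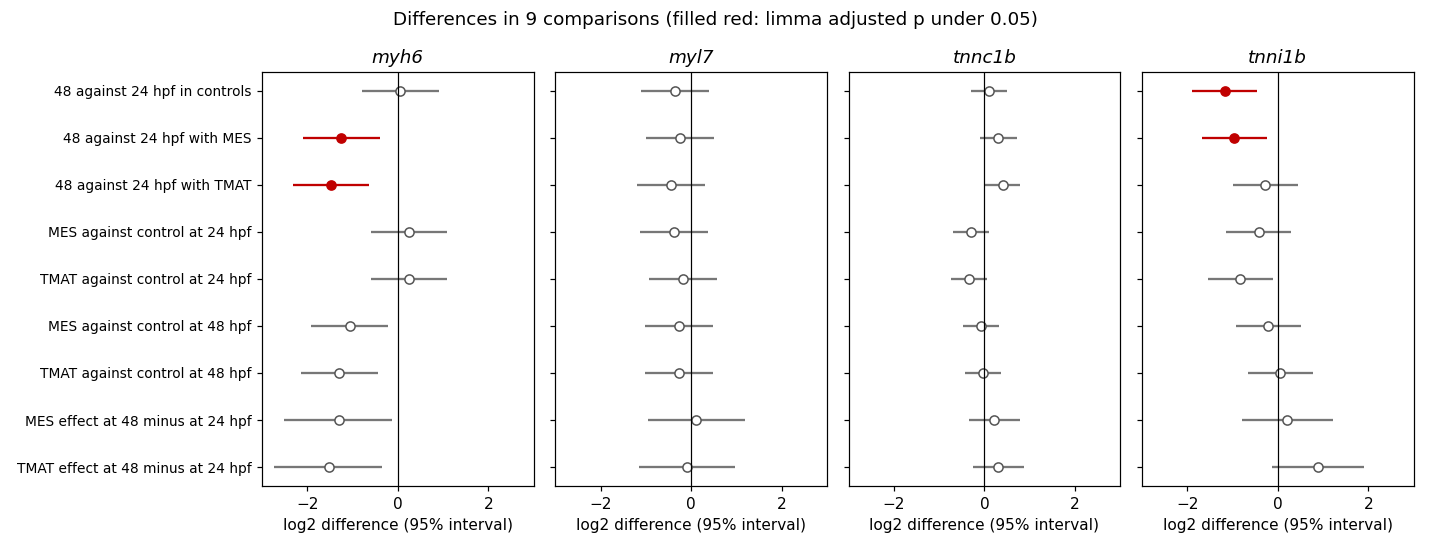
Log2 difference (horizontal) with its 95% interval for each of the 9 comparisons (vertical) and each gene; filled red points passed at a limma adjusted p of 0.05. The passing points are those of myh6 between the ages with MES (−1.25) and with TMAT particles (−1.47), and those of tnni1b between the ages in controls (−1.17) and with MES particles (−0.96).

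myl7, the light chain that partners the cardiac heavy chains, gave a dim signal. In controls it read 295, 226 and 298 at 24 hpf and 123, 446 and 171 at 48 hpf. With MES particles it read 178, 206 and 250, then 162, 172 and 196. In the TMAT groups it read 195, 332 and 208, then 177, 164 and 183. These values were 1.17 to 3.59 times the random control probes of the same array (median 2.22), and on 4 of 18 arrays they were under 2 times that level. The highest value, 446, came from control array 2 at 48 hpf, whose random probes read 168.6, also the highest of any array, and it was 2.65 times them. Control array 1 at 48 hpf, the lowest at 123, had random probes at 105.8.

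No myl7 difference passed in any of the 9 comparisons. The log2 difference between the ages was −0.36 ± 0.36 in controls (95% interval −1.11 to 0.40, limma adjusted p = 0.482), −0.25 ± 0.36 with MES (adjusted p = 0.649) and −0.45 ± 0.36 with TMAT particles (−1.20 to 0.31, adjusted p = 0.487). All 3 estimates were negative. The TMAT values did not overlap between the ages, as was so with the older lower for 20.1% of all features. At 48 hpf the differences from control were −0.26 (−1.01 to 0.49, adjusted p = 0.702) and −0.27 (−1.03 to 0.48, adjusted p = 0.688), and at 24 hpf −0.37 (−1.12 to 0.38, adjusted p = 0.791) and −0.19 (−0.94 to 0.57, adjusted p = 0.848), for MES and TMAT particles in that order. Control array 2 at 48 hpf decided the control values. Without it the change with age in controls was −0.90 and passed (adjusted p = 0.0226), and the differences of exposed embryos at 48 hpf turned positive, at 0.28 and 0.27. Without control array 1 of that age, the age change in controls was 0.03. The intervals are those of the array signal, and what part of it at this level is transcript was not tested.

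tnni1b, the troponin subunit that holds contraction off at low calcium, fell between the ages in controls and with MES particles. In controls it read 3203, 2297 and 1272 at 24 hpf and 966, 651 and 1303 at 48 hpf. With MES particles it read 1392, 1711 and 1629, then 763, 677 and 1021, with no overlap. In the TMAT groups it read 919, 1707 and 1055, then 830, 972 and 1158. The highest control value at 48 hpf, 1303, exceeded the lowest at 24 hpf, 1272, and the TMAT values overlapped between the ages as well. With MES particles, 29.1% of all features had ages that did not overlap with the older lower.

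The log2 difference between the ages was −1.17 ± 0.34 in controls (95% interval −1.89 to −0.45, limma adjusted p = 0.0182, n = 3 per age), a 2.25-fold lower level. With MES particles it fell by 0.96 on the log2 scale (SE 0.34, interval −1.68 to −0.24, limma adjusted p = 0.0475), to a 1.94-fold lower level. With TMAT particles it was −0.28 ± 0.34 (−0.99 to 0.44, limma adjusted p = 0.683) and did not pass. In controls tnni1b was the single member called of 4, where 26.8% of all features were called and 13.4% were called lower. With MES particles 2 of 4 members were called, against 26.0% of all features, and with TMAT particles 1 of 4, against 15.5%. The control call was lost without control array 1 at 24 hpf (−0.87, adjusted p = 0.0838) and without control array 2 at 48 hpf (−0.91, adjusted p = 0.0866), the highest and the lowest value of their ages. Without both, the difference was −0.61 (adjusted p = 0.247). The MES call was kept in 1 of 6 such fits, that without MES array 3 at 48 hpf (−1.13, adjusted p = 0.0449). It was lost without MES array 1, 2 or 3 at 24 hpf (0.0769, 0.128 and 0.102) and without MES array 1 or 2 at 48 hpf (0.117 and 0.170). It was lost too when arrays were centred on their medians (0.0664).

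No difference of tnni1b from control passed. At 24 hpf it was −0.83 ± 0.34 with TMAT particles (95% interval −1.55 to −0.11, unadjusted p = 0.0257, limma adjusted p = 0.654, n = 3 per group) and −0.42 ± 0.34 with MES particles (−1.14 to 0.29, adjusted p = 0.787). Without control array 1 at 24 hpf these were −0.53 and −0.12. At 48 hpf it was 0.06 ± 0.34 (−0.66 to 0.78, adjusted p = 0.934) with TMAT and −0.21 ± 0.34 (−0.93 to 0.51, adjusted p = 0.750) with MES particles. The change of effect between the ages was 0.90 ± 0.48 for TMAT (−0.12 to 1.91, adjusted p = 0.610) and 0.21 ± 0.48 for MES particles (−0.80 to 1.23, adjusted p = 0.846), and without the pair of control arrays these were 0.33 and −0.35, the latter with its sign turned. The change with TMAT particles was therefore not shown to differ from the fall in controls.

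**Figure D3:**
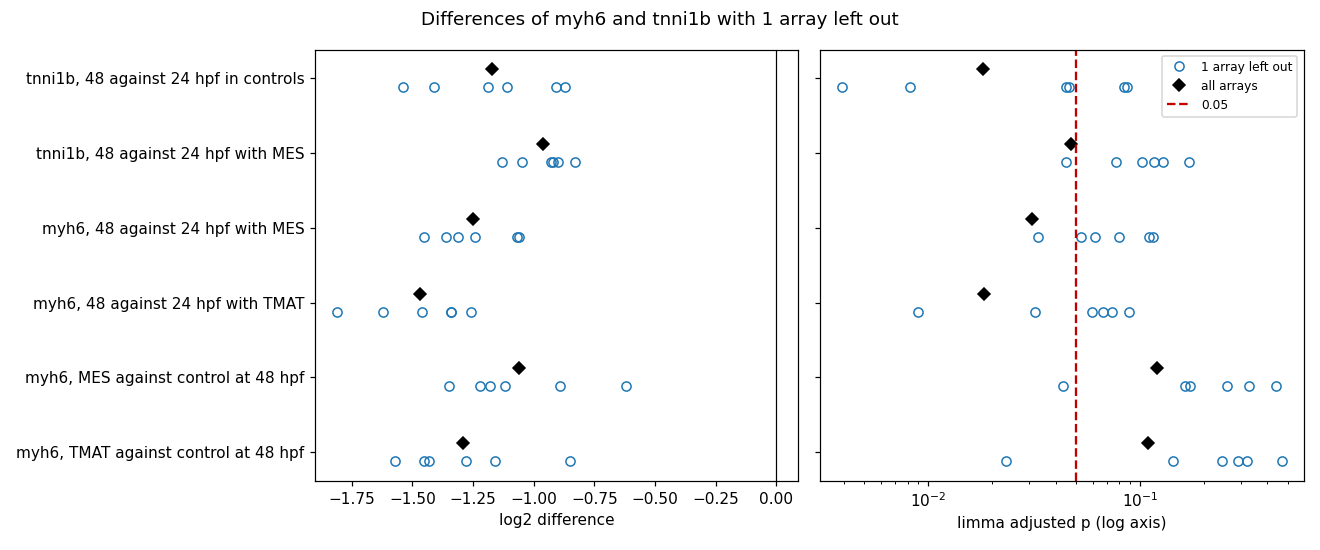
Log2 difference (left, horizontal) and limma adjusted p (right, log axis) for 6 results of myh6 and tnni1b, with all arrays (black diamonds) and with each array of the comparison left out in turn (blue circles); the dashed line is 0.05. Signs held throughout, while the adjusted p of every result crossed 0.05 in at least 1 fit, as for myh6 with TMAT particles between the ages (0.00892 to 0.0892).

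tnnc1b, the calcium sensor of the thin filament, was bright on every array. In controls it read 49484, 42823 and 41251 at 24 hpf and 44676, 47413 and 49997 at 48 hpf. With MES particles it read 35565, 36686 and 36717, then 48145, 42153 and 45017. In the TMAT groups it read 28957, 43861 and 33885, then 40377, 48299 and 50390. These values were 47.2 to 82.4% of the brightest feature of the same array. The whole spread over the 18 arrays was 1.74-fold. Whether differences are compressed this near the top of the scale was not tested, so this spread is not set against those of the dimmer features.

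For tnnc1b the largest estimate was between the ages with TMAT particles, at 0.40 ± 0.19 (95% interval 0.00 to 0.79, unadjusted p = 0.0497, limma adjusted p = 0.189, n = 3 per age), and it did not pass. With MES particles the difference was 0.31 ± 0.19 (−0.09 to 0.71, adjusted p = 0.234) and the 24 and 48 hpf values did not overlap. The older arrays did not overlap the younger and were higher for 26.4% of all features in that comparison. In controls it was 0.09 ± 0.19 (−0.30 to 0.49, adjusted p = 0.750). At 24 hpf the 3 MES values, 35565 to 36717, lay below the 3 control values, 41251 to 49484. This difference was −0.29 ± 0.19 (−0.69 to 0.11, limma adjusted p = 0.787), and 5.83% of all features showed such a separation with the exposed arrays lower. With TMAT particles it was −0.34 ± 0.19 (−0.74 to 0.06, adjusted p = 0.654). At 48 hpf the differences were −0.07 (−0.47 to 0.33, adjusted p = 0.859) with MES and −0.04 (−0.43 to 0.36, adjusted p = 0.931) with TMAT particles. Both lay nearer 0 than the median over all features, −0.14 and −0.15, and their sign turned with arrays centred on their medians, to 0.03 and 0.08.

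Ordered by mean log2 intensity, the 6 groups of each gene formed few steps larger than the spread within groups. For myh6 the 3 groups at 24 hpf and the 48 hpf controls lay between 11.24 and 11.48, and the next step down, 1.01 to MES at 48 hpf, exceeded the larger SD of the neighbouring groups, 0.58. TMAT at 48 hpf was lowest, 0.22 below MES with an SD of 0.31. For tnnc1b the order ran from controls at 48 hpf (15.53 ± 0.08) to TMAT at 24 hpf (15.10 ± 0.30), and the step from controls (15.44) to MES (15.15) at 24 hpf was the only one above the SD, 0.29 against 0.14. For tnni1b the order ran from controls (11.04 ± 0.68), MES (10.62 ± 0.16) and TMAT (10.21 ± 0.47) at 24 hpf to TMAT (9.93 ± 0.24), controls (9.87 ± 0.50) and MES (9.66 ± 0.30) at 48 hpf, with no step above the SD. For myl7, too, no step exceeded the SD, from 8.08 ± 0.23 in controls at 24 hpf to 7.45 ± 0.08 with TMAT particles at 48 hpf. Which group stood highest was not resolved for any of the 4 genes, since each top step was smaller than the SD.

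Among other genes of the heart muscle sarcomere, 12 of 53 listed symbols were measured. Here and below, measured means found among the 2659 of 37105 features that carried a gene symbol. The other features were not searched, so a listed gene that was not found may still be on the array. The 12 measured genes need not report the heart alone. myoz2a also stands in the list of slow skeletal muscle used below, and the part of skeletal muscle in their signals was not tested. The ventricular myosin heavy chain, the titins and the cardiac troponin T of the heart muscle list were not analysed here. In controls 3 of the 12 rose between the ages, 2 fell and 7 did not pass (median 0.19, against −0.01 over all features, of which 26.8% were called). The tropomyosin gene tpm1 rose by 1.22 ± 0.31 (limma adjusted p = 0.00945), and the troponin I genes tnni4b.3 and tnni4a by 0.99 (adjusted p = 0.0295) and 1.07 (adjusted p = 0.0433), the latter named after its value was seen. Without the pair of control arrays tpm1 still passed (1.29, adjusted p = 0.00110), while tnni4b.3 (0.83, adjusted p = 0.130) and tnni4a (0.85, adjusted p = 0.117) did not. The Z-disc gene myoz2b fell by 1.01 on the log2 scale (adjusted p = 0.00546), and smyd1b, a methyltransferase needed for myosin assembly in zebrafish muscle, by 1.14 (adjusted p = 0.00134). Without the pair of control arrays both of these falls still passed, myoz2b at −0.98 (adjusted p = 0.0226) and smyd1b at −1.45 (adjusted p = 2.19e-04). The fall of tnni1b in controls did not pass without that pair. The troponin I genes are related in sequence, and cross-hybridisation between them was not tested.

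With MES particles 1 of the 12 rose between the ages, tnni4a at 1.21 (adjusted p = 0.0256), and 2 fell, smyd1b (−1.42, adjusted p = 2.93e-04) and myoz2b (−1.14, adjusted p = 0.00279). With TMAT particles 2 rose, tnni4b.3 (1.41, adjusted p = 0.00550) and tpm1 (1.04, adjusted p = 0.0323), and 1 fell, smyd1b (−1.35, adjusted p = 4.77e-04). Over all features 26.0% and 15.5% were called in these comparisons. The medians were −0.01 in both. cmya5, which encodes the muscle protein myospryn, was at −0.83 (adjusted p = 0.0508) with MES particles and at 0.64 (adjusted p = 0.121) in controls. Its change of the MES effect did not pass (−1.47, adjusted p = 0.193), and without the pair of control arrays its control value was 0.31 (adjusted p = 0.588).

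**Figure D4:**
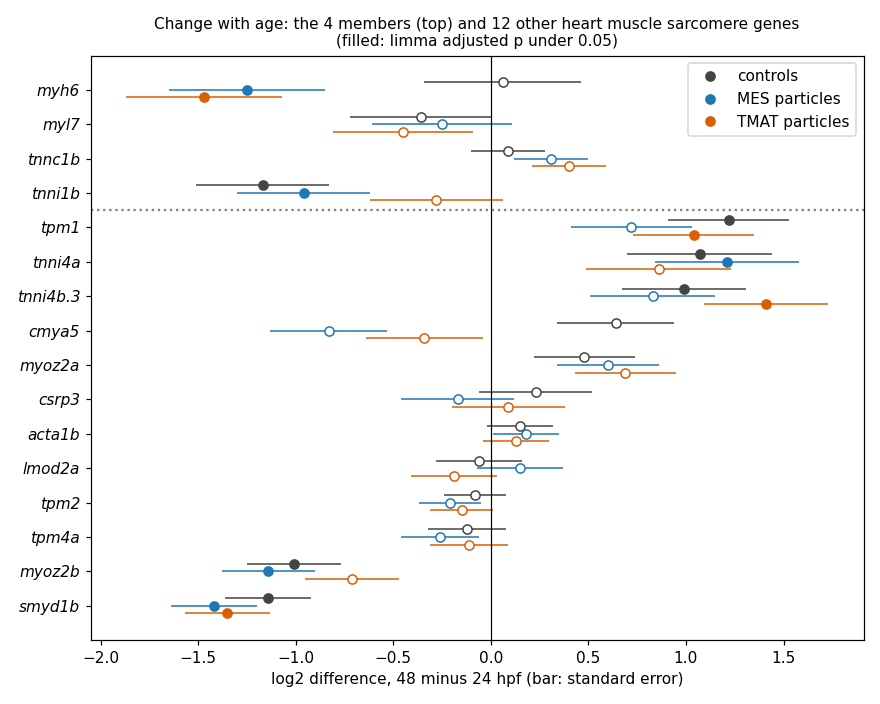
Log2 difference between 48 and 24 hpf (horizontal, bars are standard errors) for the 4 members (top) and the 12 other measured heart muscle sarcomere genes, in controls (grey), MES (blue) and TMAT (orange); filled points passed at a limma adjusted p of 0.05. smyd1b passed in all 3 series (−1.14, −1.42 and −1.35) and myh6 in the 2 exposed ones. The 12 other genes need not report the heart alone.

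At 48 hpf, all 12 of these genes had negative differences from control with MES particles and 11 of 12 with TMAT particles, with medians of −0.28 and −0.22 against −0.14 and −0.15 over all features. Several were small, such as acta1b at −0.01 with MES particles. Without the pair of control arrays lmod2a (0.16), tnni4a (0.03) and smyd1b (0.19) were positive with MES particles. With TMAT particles tnni4a (0.03), tpm4a (0.05), smyd1b (0.09) and acta1b (0.01) were then positive. The rest of the 12 stayed negative. With MES particles cmya5 fell by 1.13 ± 0.30 on the log2 scale (10.77 ± 0.11 SD against 11.90 ± 0.49, limma adjusted p = 0.0391, n = 3 per group) and tpm1 by 1.13 ± 0.31 (9.84 ± 0.18 SD against 10.97 ± 0.61, adjusted p = 0.0457). Called genes were thus 2 of 12, where 5.76% of all features were called. With TMAT particles tpm1 was at −1.07 (adjusted p = 0.0962) and cmya5 at −0.89 (adjusted p = 0.129), and 0 of 12 passed. The number of called features over the whole array in the MES comparison was 2138, and it was 0 without control array 1, 2 without control array 2, 0 without MES array 1 and 0 without MES array 2. Without the pair of control arrays neither gene passed, with cmya5 at −0.95 (adjusted p = 0.0985) and tpm1 at −0.82 (adjusted p = 0.0571). At 24 hpf 0 of 12 passed with either particle, where 1459 (MES) and 2242 (TMAT) of all features had an unadjusted p under 0.05 in limma and 0 were called.

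Other genes of heart muscle and of muscle at large give the context of the members. Of 7 measured genes of heart hormones, calcium handling and conduction, 3 rose between the ages in controls and 0 fell. The median was 0.59, against −0.01 over all features, of which 26.8% were called. All 7 were positive, but kcnj11 (0.34) turned to −0.22 without the pair of control arrays. The 3 that rose were jph2, which joins the calcium-release membranes (1.59, limma adjusted p = 0.00457), the cardiac sodium channel scn5lab (1.19, adjusted p = 0.0128) and the calcium store protein casq1a (2.24, adjusted p = 0.0179). Without the pair of control arrays they were 1.06 (adjusted p = 0.0172), 0.61 (adjusted p = 0.165) and 1.21 (adjusted p = 0.00436), so scn5lab no longer passed. The genes of this list need not report the heart alone: casq1b, a relative of casq1a, stands in the list of fast skeletal muscle. casq1a read 15401 to 24052 in controls at 48 hpf, and what part of it came from skeletal muscle was not tested. With MES particles 1 of 7 was called, the gap junction gene gja5b (1.05, adjusted p = 0.0313), but 6 of 7 differences were positive with a median of 0.75. With TMAT particles 0 of 7 were called, jph2 being nearest (0.91, adjusted p = 0.113), and 6 of 7 were positive with a median of 0.43. Over all features 26.0% and 15.5% were called with MES and TMAT particles, with medians of −0.04 and −0.03. The changes of the MES effect did not pass for jph2 (adjusted p = 0.452) or casq1a (adjusted p = 0.637). Of the 7 genes, 4 had a negative and 3 a positive change of the MES effect (median −0.54, against −0.03 over all features). All 7 changes of the TMAT effect were negative (median −0.67, against −0.01). For either particle 0 of 7 changes passed, so fewer calls do not show a smaller rise. At 48 hpf kcnj11, a subunit of the ATP-sensitive potassium channel, fell by 1.35 on the log2 scale with MES particles (adjusted p = 0.0344) and was at −1.19 with TMAT particles (adjusted p = 0.0927). Without the pair of control arrays the MES difference was −0.93 and did not pass (adjusted p = 0.0904). The control values of kcnj11 at 48 hpf ran from 1681 to 5024. Over all features 1.89% were called lower with MES particles at that age. As described above, leaving out any of several single arrays removed all or nearly all calls of that comparison over the whole array. The 1 regulator of heart development found among features with a symbol, mef2ca, was at 0.79 between the ages in controls (adjusted p = 0.175) and at −0.80 with MES particles (adjusted p = 0.166). Its change of the MES effect did not pass (−1.59, adjusted p = 0.222). Of 4 genes of the endocardium and valves, egfl7 fell in controls (−0.92, adjusted p = 0.0104, and −0.78, adjusted p = 0.0717, without the pair) and with MES particles (−0.71, adjusted p = 0.0387), and 0 of 4 passed with TMAT particles. By the same test 13.4% of all features fell in controls and 12.6% with MES particles.

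Skeletal muscle is the other main source of sarcomere transcripts in a whole embryo. Over all features 26.8%, 26.0% and 15.5% were called between the ages in controls, with MES and with TMAT particles. Of 10 measured genes of fast muscle 5 rose in controls and 0 fell (median 0.88), led by ampd1 (6.57), capn3a (3.87) and the troponin I gene tnni2b.2 (4.27). Their summed intensity was 110752 to 129025 in controls at 24 hpf and 202939 to 238326 at 48 hpf, 114595 to 127230 and 215823 to 238618 with MES, and 120833 to 130327 and 215526 to 233041 with TMAT particles. No listed feature was at 0. The exposed groups at 48 hpf thus lay inside or just above the control range, with 0 of 10 genes passing against control for either particle. Over all features 5.76% passed against control at that age with MES and 0.00% with TMAT particles. Of 7 genes of slow muscle 1 rose in each series, mybpc1, a myosin-binding protein of slow fibres (1.33, 1.49 and 1.46 in controls, MES and TMAT, adjusted p of 3.62e-04, 1.81e-04 and 2.16e-04), and 0 fell. The sums of these 7 were 91749 to 99385 at 24 hpf and 91227 to 113029 at 48 hpf in controls. The part of skeletal muscle in the signal of tnnc1b and tnni1b was not tested.

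In the remaining lists, 0 of 4 muscle regulatory factors, mef2ca among them, passed in controls between the ages (median 0.67, all 4 positive). Without the pair of control arrays, pax7a (−0.29, adjusted p = 0.739) and vgll2b (−0.56, adjusted p = 0.174) turned negative in controls, while mef2ca (0.64) and vgll2a (0.36) did not. With MES and TMAT particles all 4 were negative between the ages (medians −0.81 and −0.53). The change of effect passed for none of the 4 with either particle. Of these, vgll2a, a cofactor of muscle transcription, fell with MES (−1.82, adjusted p = 0.00136) and TMAT particles (−1.41, adjusted p = 0.00921), while its changes of effect did not pass (−2.37, adjusted p = 0.193, and −1.96, adjusted p = 0.610). At 48 hpf vgll2a fell against control with MES particles (−1.48, adjusted p = 0.0271, and −1.43, adjusted p = 0.0658, without the pair of control arrays). Its signal at 48 hpf was dim, at 97 to 256 with MES and 184 to 225 with TMAT particles. The random probes of the exposed arrays read 78.8 to 96.4, and what part of the vgll2a signal at this level is transcript was not tested. In controls 2 of 4 smooth muscle genes rose between the ages, acta2 (1.97, adjusted p = 0.00109) and myh11a (1.42, adjusted p = 0.00924, and 0.95, adjusted p = 0.0819, without the pair), while smtnl1 fell (−2.65, adjusted p = 9.97e-07). Of 5 red blood cell genes 0 rose and 2 fell, blf (−2.71, adjusted p = 1.60e-06) and the embryonic globin hbbe3 (−1.83, adjusted p = 1.14e-04). Of 7 chaperone and assembly genes 1 rose, the small heat shock gene hspb2 (1.57, adjusted p = 8.08e-05), and 1 fell, smyd1b. By the same test 26.8% of all features were called in controls, and 13.4% were called lower. At 48 hpf smtnl1 (−1.07, adjusted p = 0.0244) and ppox, an enzyme of haem synthesis (−1.19, adjusted p = 0.0301), fell with MES particles, and neither passed without the pair (adjusted p = 0.0542 and 0.0730). Over all features 1.89% were called lower in that comparison. These calls and that of vgll2a at 48 hpf belong to the comparison whose calls depended on single arrays, as described above.

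Likeness in pattern was described by Pearson's r with the 2462 other features that carried a gene symbol other than a clone or locus name, over 18 arrays that fall into 2 ages and share controls, so r carries no p. For myh6 the highest were fam78aa (0.94), pcyox1 (0.93) and the Iroquois factor irx3b (0.93). For tnni1b they were cbr4 (0.95), gnpnat1 (0.95) and sirt4 (0.92). For tnnc1b they were reep6 (0.89), cbx8b (0.88) and myoz2a, a Z-disc gene (0.88). For myl7 they were itga2b (0.85), gstz1 (0.84) and thnsl2 (0.84), which fell to between 0.77 and 0.80 without control array 2 at 48 hpf. Of the deviations from group means, which leave age and agent out, the highest were gpsm2l (0.93), tert (0.91) and adgrv1 (0.90) for myh6. They were itga2b (0.89), thnsl2 (0.88) and gstz1 (0.86) for myl7, cbx8a (0.93), slc25a43 (0.93) and cox20 (0.92) for tnnc1b, and bscl2l (0.94), cbr4 (0.93) and mrps6 (0.93) for tnni1b. Those of myl7 fell to 0.77, 0.78 and 0.76 without control array 2 at 48 hpf. Members were left out of the ranking.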

How the data were processed

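Total RNA of 18 pools of 40 embryos was hybridised, Cy3-labelled, to one-colour NimbleGen arrays. For each array the authors deposited a table of intensity by feature, on a linear scale. RMA, which corrects background, normalizes quantiles and summarises probes, is named in the submitters' processing notes, with its version and the genome build not given in the sources used here. The combined table of the deposited intensity values was used only as an alternative, since 16 of its 18 columns equalled the table of another sample (tolerance 0.001).

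Groups came from the sample titles. The log2 of each deposited intensity was taken with no pseudocount, filter or further normalization. limma 3.58.1 in R 4.3.3 fitted the means of 6 groups over 37105 features with 12 residual degrees of freedom. Each of 9 two-sided contrasts was adjusted by the Benjamini-Hochberg method over all features, with calls at an adjusted p under 0.05. Intervals are 95% intervals with moderated variance. Precision is limited by having 3 arrays per group. The fit was tested on simulated data in which each feature had the same spread on every array. This does not cover arrays that stand apart, so it cannot vouch for calls that turn on them.

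Symbols came from RefSeq accessions, of which 2659 of 3051 had a current symbol. The rest of the 37105 features carried no symbol here. Whether they hold listed genes or further features of the 4 members was not tested. The members and gene lists were chosen with earlier results of these data known. All members were named. Of each list, up to 4 measured genes with the smallest p in the comparison described were named, and for likeness the 3 features with the highest r. Alternatives were median centring, quantile normalization, a filter on dim features, array weights, a replicate block, the arrays of a comparison alone, the combined table, and leaving out each array in turn.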

Additional observations from a re-analysis of the deposited data

How the results depend on the processing

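Each of the 4 genes was recomputed in its comparisons under every alternative, and the cause of a change was not tested unless stated. The count of genes called below is out of 4. With arrays centred on their medians, 1 gene was called between the ages with MES particles in place of 2, and signs turned for myh6 (−0.08) and tnnc1b (−0.05) between the ages in controls, for tnnc1b at 48 hpf with MES (0.03) and TMAT particles (0.08), and for myl7 in the change of the TMAT effect (0.06). After quantile normalization signs turned for myh6 in controls (−0.04) and for myl7 in the change of the MES effect (−0.01). The filter on dim features kept 34431 features and the 4 genes, and it turned no sign and ended no call. Same-numbered arrays did not deviate together (r of deviations from the group means −0.73 to 0.61, with 0 of 15 pairs of groups having all 3 over 0.1), so numbers were not taken as pairs. The replicate block left 1 gene called between the ages with MES particles, as tnni1b (−0.96) had an adjusted p of 0.0705, and it changed no other call. With the arrays of the comparison alone, which leaves fewer samples to estimate the spread, 0 genes were called in controls (tnni1b adjusted p = 0.157).

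Array weights were estimated gene by gene, a method chosen after the default did not converge. At 48 hpf the weights of arrays 1, 2 and 3 were 6.39, 0.19 and 0.35 in controls and 5.04, 0.87 and 1.31 with MES particles. The weighted means of these groups thus rested mainly on array 1. Array weights gave 2 called genes in controls, 3 with MES and 2 with TMAT particles between the ages. They gave 1 each for MES at 48 hpf (myh6 −0.96, limma adjusted p = 4.19e-04), TMAT at 48 hpf (myh6 −0.92, adjusted p = 0.00317) and the changes of the MES (myh6 −1.11, adjusted p = 0.0338) and TMAT effects (myh6 −1.24, adjusted p = 0.0368). The shares of all features called given above are those of the unweighted fit and do not apply to these counts. The share called in the weighted fit is not given here, so the higher counts are not a result about these genes. Signs turned for myh6 in controls (−0.49), for myl7 (0.38) and tnnc1b (0.06) with MES at 48 hpf, for myl7 (0.41), tnnc1b (0.02) and tnni1b (−0.03) with TMAT at 48 hpf, and in the changes of effect for tnni1b with MES (−0.22) and myl7 with TMAT (0.80).

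By the per-array labels, 8 of the 18 columns of the combined table hold a sample of the other age and 4 one of the same group. Results under its own labels therefore do not test how stable the calls are. With the combined table as labelled, 0 genes were called between the ages in controls, 0 with MES and 0 with TMAT particles. Signs turned in controls for myh6 (−0.43), myl7 (0.01) and tnnc1b (−0.15), with MES between the ages for tnnc1b (−0.31) and tnni1b (0.09), and with TMAT for myl7 (0.02). They turned for myl7 (0.49) and tnnc1b (0.02) with MES at 24 hpf, for myh6 (0.21), myl7 (0.15) and tnni1b (0.07) with MES at 48 hpf, and for myh6 (0.01) and tnnc1b (0.08) with TMAT at 48 hpf. In the changes of effect they turned for myl7 (−0.34) and tnnc1b (−0.16) with MES and for myl7 (0.01) with TMAT. Without the pair of control arrays that stood apart (array 1 at 24 hpf, array 2 at 48 hpf), chosen after seeing the data, signs turned for myh6 in controls (−0.71) and at 24 hpf with MES (−0.08) and TMAT particles (−0.09), for myl7 at 48 hpf with MES (0.28) and TMAT (0.27), for tnni1b with TMAT at 48 hpf (−0.20), and in the changes of effect for tnni1b with MES (−0.35) and myl7 with TMAT (0.39). Among results that kept their sign, 1 call was lost, that of tnni1b in controls, and 1 result that had not passed then passed.

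With each array left out in turn, the number of called genes ranged from 0 to 1 in each age comparison and in each comparison at 48 hpf. Signs turned within these ranges: myh6 in controls from −0.38 to 0.34, and at 24 hpf from −0.08 to 0.45 with MES and from −0.09 to 0.58 with TMAT particles. myl7 ranged from −0.90 to 0.03 in controls, from −0.65 to 0.28 with MES and −0.66 to 0.27 with TMAT at 48 hpf, and from −0.28 to 0.65 and −0.47 to 0.45 in the changes of the MES and TMAT effects. tnnc1b ranged from −0.10 to 0.06 with TMAT at 48 hpf. tnni1b ranged from −0.47 to 0.03 with MES and −0.20 to 0.30 with TMAT at 48 hpf, and from −0.09 to 0.58 in the change of the MES effect. The dim signal of myl7 limits what its values can show.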
